A study of Mus musculus with 4 samples.

Results

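The 7 wound repair growth factors *Areg*, *Hbegf*, *Igf1*, *Vegfa*, *Pdgfa*, *Pdgfb* and *Gdf15* were followed across the immune cells of mouse wounds by single-cell RNA sequencing. They were taken as the rows of these symbols, and all 7 were listed in each of the 4 count matrices, which together listed 21739 gene symbols. Each library held cells of wounded skin from 6-week-old C57/BL6j mice, collected on day 7 after an 8 mm full-thickness wound was made. Control mice received phosphate-buffered saline under the skin around the wound, and hucMSC-Exo mice received 100 µg of exosomes from human umbilical cord mesenchymal stem cells, at 4 sites every 48 h. There were 2 libraries per group, numbered 1 and 2, and values are given as Control 1 and 2 followed by hucMSC-Exo 1 and 2. Each library came from 1 mouse per the methods, whereas the sample labels do not name the animals. The p-values between treatment groups thus measure only the spread between these libraries. Those between classes of cells come from 1 fit with the library as a block. They measure the spread left after library and class, pooled over the classes. Groups follow the sample titles. The letters in the matrix names, c and t, instead set the libraries titled Control 1 and hucMSC-Exo 1 against those titled Control 2 and hucMSC-Exo 2, so each difference between the treatment groups holds only as far as the titles are right. Neutrophil-like cells numbered 56, 347, 93 and 544 in the order above. Grouped by the titles they are 56 and 347 against 93 and 544, which overlap. Grouped by the letters they are 56 and 93 against 347 and 544, which do not. Which grouping is right was not tested. The exosomes are human material in a mouse host, and all mice were wounded, so no library shows unwounded skin.

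Growth factors released in a wound act on the epidermis, the vessels and the fibroblasts that close it. Amphiregulin (*Areg*) and heparin-binding EGF-like growth factor (*Hbegf*) are made as membrane proteins, are cut free by a sheddase and act on the EGF receptor of keratinocytes, while insulin-like growth factor 1 (*Igf1*) acts on the IGF-1 receptor. *Vegfa* drives vessel growth, the products of *Pdgfa* and *Pdgfb* form dimers that act on fibroblasts and pericytes, and growth differentiation factor 15 (*Gdf15*) is a stress-induced member of the TGF-beta superfamily.

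The libraries held 1098, 2422, 1539 and 2119 cells, of which 952, 2074, 1416 and 2001 had 200 to 3000 genes and at most 10% mitochondrial counts. The kept cells had a median of 3747 to 4392.5 unique molecular identifiers (UMIs, each a counted RNA molecule). *Ptprc*, the gene of the leukocyte antigen CD45, was found in 81.5% to 87.7% of all deposited cells of a library. The source label of the samples names gut, whereas the cell type label, the protocols and the cells name skin: 1051 cells were dendritic epidermal T cell-like (DETC-like), a gamma delta T cell of the mouse epidermis. The cells fell into 22 clusters, and 11 classes had at least 10 cells in every library. Class names rest on marker lists and end in "-like". A DETC-like cluster of 509 cells, led by *Trmt61b*, had 6 of 8 DETC markers detected but 0 among its 10 leading genes. The DETC-like cluster led by *Col27a1* had 1 among its leading genes. The class led by *Pdpn*, *Arg1* and *Mmp19* matched the osteoclast-like macrophage list best, but *Ctsk* was found in only 15.6% and *Acp5* in 36.7% of its cells. It is therefore called by its leading genes, *Pdpn*/*Arg1* cells (602 cells, in number 17, 313, 149 and 123). Levels are CPM, the counts scaled to a total of 1000000, over all UMIs of a class in a library, and are compared only within a gene, since UMI counts are not set against transcript length.

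*Areg* was found mainly in lymphocytes. The start of the gene is at chr5:91139599 of GRCm38. The 250 bases before it (RefSeq, chr5:91139349-91139598, plus strand) are shown because *Areg* was highest in gamma delta and CD4 T cell-like classes. Capitals mark, in order, a cyclic AMP response element (TGACGTCA), a GC box (GGGCGG) and a TATA box (TATAAA).
Areg: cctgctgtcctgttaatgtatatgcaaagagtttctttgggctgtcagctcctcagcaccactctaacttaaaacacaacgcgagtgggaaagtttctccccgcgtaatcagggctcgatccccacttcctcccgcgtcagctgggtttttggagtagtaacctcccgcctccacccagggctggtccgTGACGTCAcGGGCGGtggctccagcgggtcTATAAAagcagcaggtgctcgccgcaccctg
Of 32851 RefSeq windows of this length, 1.55% held TGACGTCA, 32.7% GGGCGG and 12.4% TATAAA on either strand. TGANTCA (AP-1), ACGTG (hypoxia response) and TGATGCAA (amino acid response) were searched likewise and were not in the *Areg* window.

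In IL-17 gamma delta T cell-like cells, which carry *Il17a* and *Il17f*, *Areg* stood at 457, 2920.3, 2703 and 2701 CPM. In DETC-like cells it stood at 1144, 2161, 2327 and 1951 CPM, and in CD4 T cell-like cells at 427, 604, 400.4 and 1210.1 CPM. Control 1 was thus far below the other libraries in both gamma delta classes, whereas the CD4 T cell-like values stood apart in hucMSC-Exo 2. Group 2 innate lymphoid cell-like cells had 276 to 482 CPM, and dendritic cell-like cells had 169 to 428 CPM. CD8 or NKT cell-like cells were far lower than the other T cell classes, at a mean of 80.9 ± 120 CPM (SD, n = 4 libraries). The means of the first and second class, 2196 ± 1163 and 1896 ± 524 CPM (SD, n = 4 libraries), differed by less than their spread: IL-17 gamma delta T cell-like cells were higher in 3 of 4 libraries, by 0.34 on the log2 scale (SE 0.48, adjusted p = 0.618, edgeR with the library as a block). DETC-like cells were above CD4 T cell-like cells in 4 of 4 libraries, by 1.33 (SE 0.50, adjusted p = 0.0297, edgeR). With 1 library left out this difference was 1.07 to 1.81, and the call was lost without Control 2 (adjusted p = 0.108), without hucMSC-Exo 1 (adjusted p = 0.0946), without the library block (adjusted p = 0.0598) and with DESeq2 (adjusted p = 0.195). Of all 8636 genes tested, 39.4% differed between the first pair of classes and 38.9% between the second. Differences of this kind between the classes were thus common among genes.

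The share of IL-17 gamma delta T cell-like cells with an *Areg* UMI was 16.1%, 43.8%, 45.5% and 47.6%, and with every cell thinned to 1000 UMIs it was 10.4%, 33.2%, 33.8% and 34.3%. In neutrophil-like cells, taken as the background of free RNA, the share was 1.10% to 5.38%, or 0.428% to 3.23% after thinning. The gamma delta T cell shares lay above this background in each library. The counts were uneven among cells. The tenth of IL-17 gamma delta T cell-like cells with the most *Areg* held 95.9%, 70.2%, 72.4% and 67.8% of its UMIs, against 38% to 42% in the DETC-like cluster led by *Trmt61b*. Cells with an *Areg* UMI also carried *Il17a* more often than those without, at 60.0% against 46.2%, 78.6% against 56.7%, 77.8% against 47.4%, and 77.7% against 58.7%. They also had more UMIs, with medians of 4581 against 3968.5, 4774 against 4670.0, 3791 against 3287, and 5111 against 4596, and the part of depth in the *Il17a* shares was not tested. In Control 1 only 10 cells carried *Areg*. A sum over 10 immediate early genes, which respond to cell handling as well as to stimulation, was 11052 CPM in these cells of Control 1 against 5162 to 5992 CPM in the other libraries, and its part in the low *Areg* of Control 1 was not tested.

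Within the DETC-like class, *Areg* divided the clusters. In the cluster led by *Trmt61b* (509 cells) it stood at 2115, 2867, 2713 and 2751 CPM and was found in 74.3% to 76.3% of cells. In the cluster led by *Col27a1* and *Prf1*, the perforin gene (514 cells), it stood at 684, 908, 1246 and 1109 CPM and was found in 32.0% to 46.9% of cells. The level was thus 2.18-fold to 3.16-fold higher in the *Trmt61b* cluster within each library. The *Col27a1* cluster held 228, 97, 64 and 125 cells and the *Trmt61b* cluster 102, 116, 190 and 101 cells, and Control 1 had the lowest *Areg* of the 4 libraries within both clusters. Among CD4 T cell-like cells, those with a *Foxp3* UMI, the gene of the regulatory T cell factor, carried *Areg* in 52.2%, 44.2%, 55.8% and 53.1% of cells, against 16.7%, 23.4%, 27.2% and 28.0% of the others (18.8% to 30.5% against 10.8% to 21.0% after thinning to 1000 UMIs). The levels did not keep this order: cells with a *Foxp3* UMI had 823, 374, 537 and 885 CPM and the others 233, 743, 315 and 1377 CPM. Fewer cells without *Foxp3* carried *Areg*, but in Control 2 and hucMSC-Exo 2 these held more UMIs. These clusters and subsets were set apart after their values were seen and are given without a test.

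**Figure D1:**
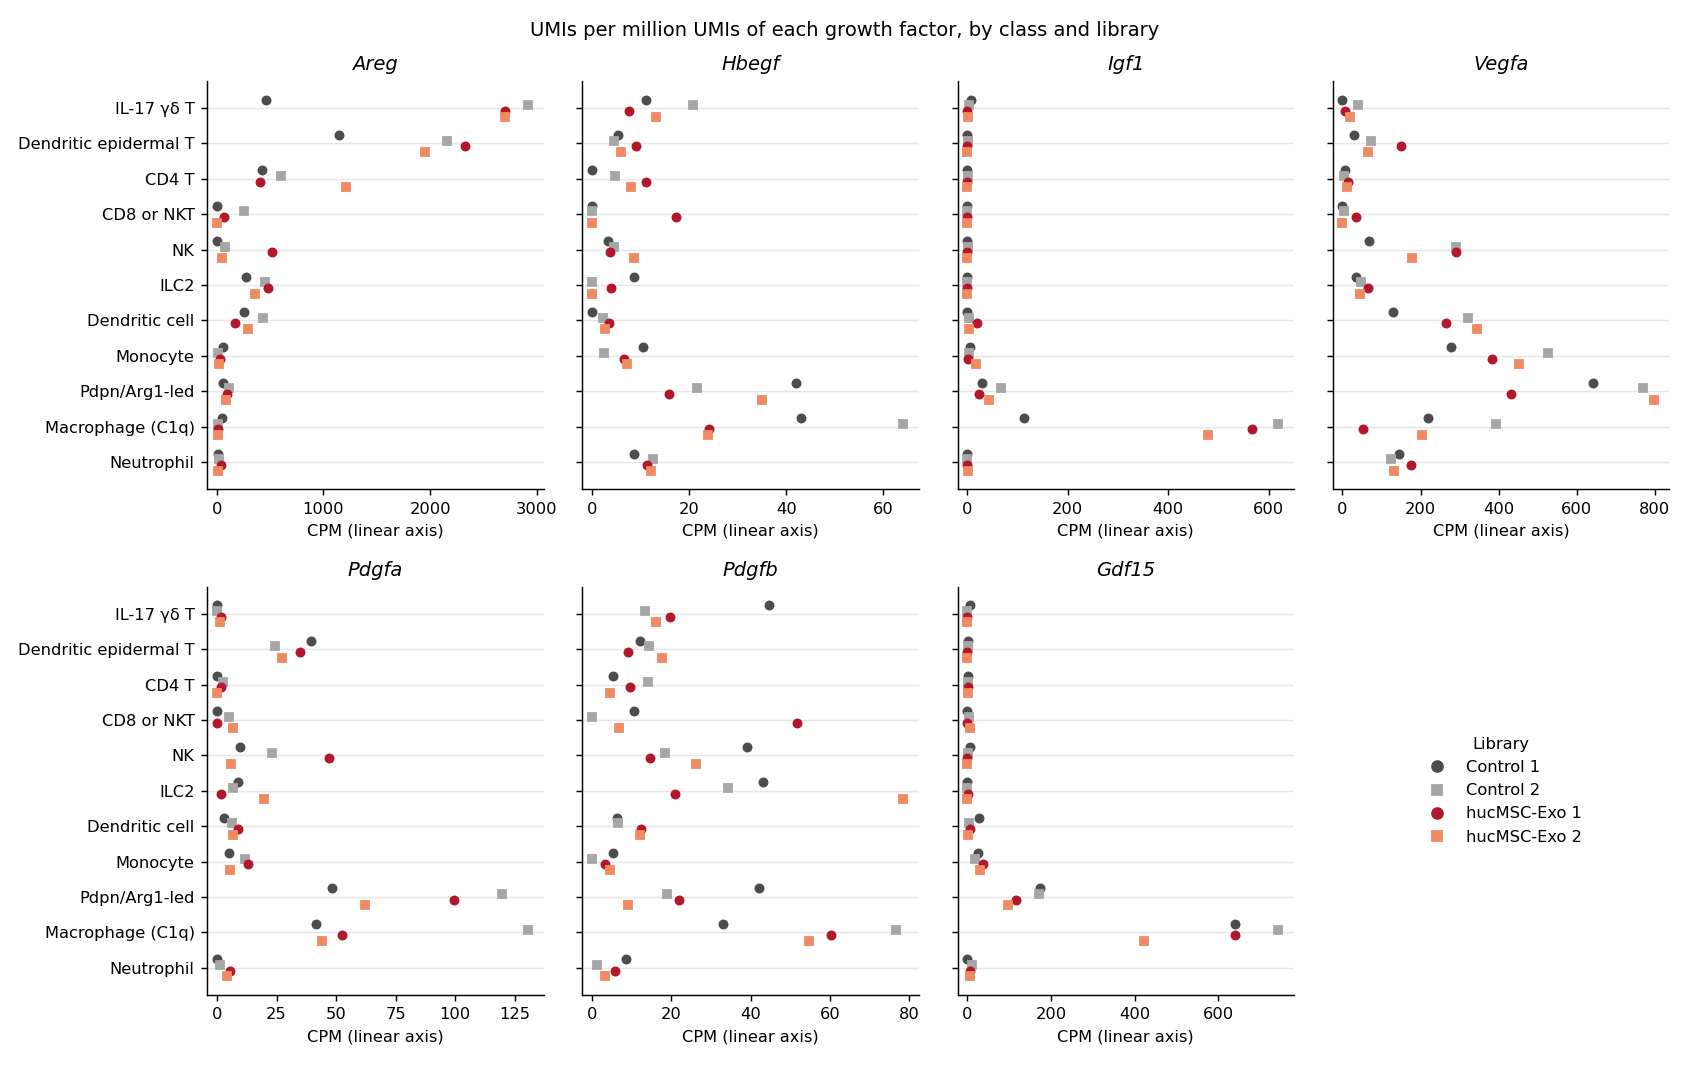
Level of each growth factor (CPM, linear axes that differ between factors) in the 11 classes with at least 10 cells in every library, with 1 point per library in its own colour and shape. *Areg* is highest in IL-17 gamma delta T cell-like and DETC-like cells, *Igf1* and *Gdf15* in macrophage-like cells and *Vegfa* in *Pdpn*/*Arg1* cells.

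**Figure D2:**
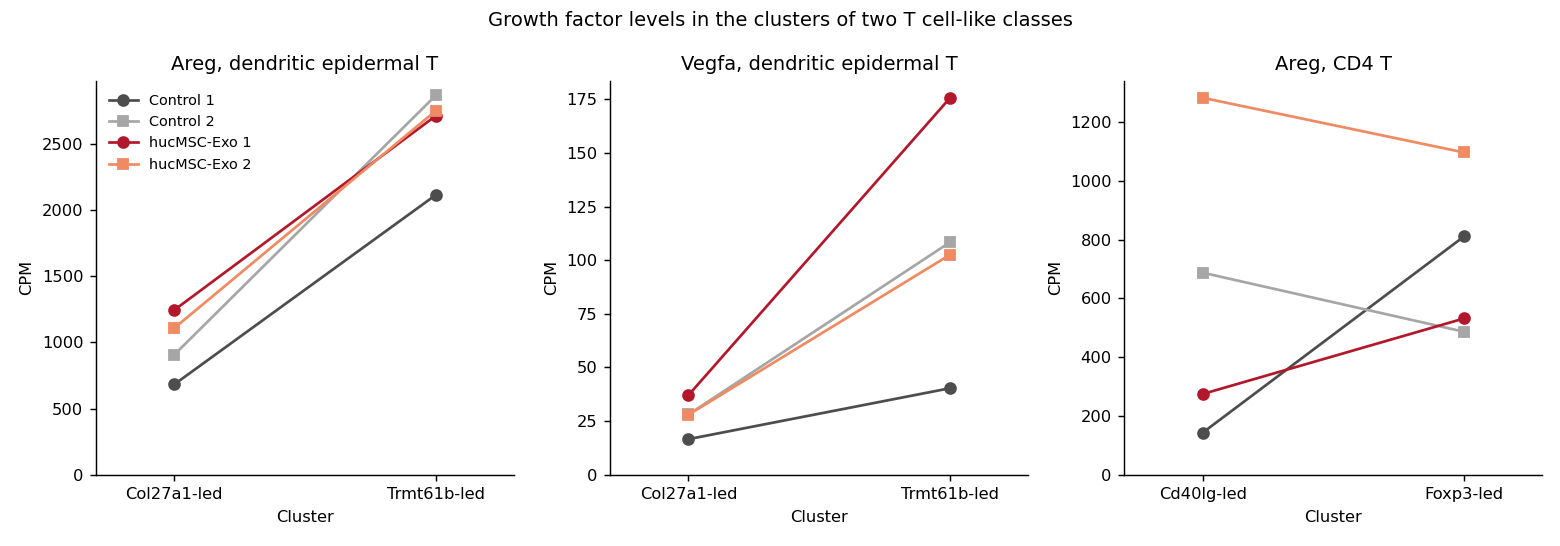
*Areg* and *Vegfa* (CPM, linear axes) in the DETC-like clusters led by *Col27a1* and *Trmt61b*, and *Areg* in the CD4 T cell-like clusters led by *Cd40lg* and *Foxp3*, with a line joining the values of each library. Both genes are higher in the *Trmt61b* cluster in 4 of 4 libraries, whereas *Areg* is higher in the *Foxp3* cluster in Control 1 and hucMSC-Exo 1 and lower in the others.

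*Hbegf*, the other EGF receptor ligand, was low in all 11 classes. It was highest in macrophage-like cells, the class with *C1qa*, *Mrc1* and *Folr2*, at 43.1, 64.1, 24.1 and 24.0 CPM, and next in *Pdpn*/*Arg1* cells at 42.1, 21.7, 15.8 and 35.0 CPM. The Control 1 value in *Pdpn*/*Arg1* cells comes from 17 cells, of which 11.8% had a UMI. The macrophage-like values rest on 51, 56, 6 and 18 UMIs. The difference between these classes did not pass the test (log2 difference 0.68, SE 0.32, unadjusted p = 0.0388, adjusted p = 0.121, edgeR), where 24.2% of genes did. *Pdpn*/*Arg1* cells were above IL-17 gamma delta T cell-like cells, the next class, by 0.99 (SE 0.37, adjusted p = 0.0190, edgeR; 54.1% of genes called), a call that was lost without Control 1 (0.83, adjusted p = 0.0826), without hucMSC-Exo 1 (0.96, adjusted p = 0.0516) and without hucMSC-Exo 2 (0.66, adjusted p = 0.260). *Hbegf* was found in 17.3%, 19.5%, 6.82% and 11.4% of macrophage-like cells, with a background of 0% to 4.22% in CD4 T cell-like cells. After thinning to 1000 UMIs these shares were 3.55%, 5.56%, 1.92% and 2.10%, against 0%, 0.603%, 1.44% and 0.684%, so in hucMSC-Exo 1 little was left above the background. In 22 of 44 pairs of class and library it had at most 3 UMIs. No promoter of *Hbegf* is shown.

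*Igf1* was found mostly in macrophage-like cells, which held 72.9% to 90.5% of its UMIs in each library. Its level there was 112, 619, 567 and 479 CPM (445 ± 229, SD, n = 4 libraries), and 28.2%, 63.4%, 59.1% and 62.3% of these cells had a UMI (9.87%, 38.2%, 31.2% and 30.3% after thinning to 1000 UMIs). CD4 T cell-like cells had an *Igf1* UMI in 0% to 1.15% of cells. Control 1 lay apart again, and of the 9 markers of the class all but *C1qb* were also lowest in it. The gap was wide for *Mrc1*, the mannose receptor, at 459 CPM against 1306 to 1544 CPM, and for *Selenop* at 1586 CPM against 2994 to 3478 CPM. It was smaller for *Adgre1*, which encodes F4/80, at 358 CPM against 499 to 626 CPM, and small for the complement gene *C1qa*, at 2970 CPM against 3009 to 3921 CPM. The part of this in the *Igf1* level was not tested. *Pdpn*/*Arg1* cells had 30.04 (17 cells, 11.8% with a UMI), 68.0, 22.9 and 44.0 CPM, lower by 3.38 on the log2 scale (SE 0.31, adjusted p = 5.4e-11, edgeR). They were in turn 2.36 above monocyte-like cells (SE 0.47, adjusted p = 3.5e-04, edgeR; 14.5% of genes called), where *Igf1* was 1.64 to 17.1 CPM. This last call was lost without Control 2 (1.55, adjusted p = 0.134) and with DESeq2 (adjusted p = 0.131). In CD8 or NKT cell-like and group 2 innate lymphoid cell-like cells it was at 0 UMIs in 4 of 4 libraries.

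*Gdf15* followed the same order of classes. Its start is at chr8:70632456 of GRCm38 on the minus strand, and the 250 bases before it (RefSeq, chr8:70632457-70632706, printed 5′ to 3′ on the minus strand) are given because the factor was found in the macrophages and hardly in lymphocytes.
Gdf15: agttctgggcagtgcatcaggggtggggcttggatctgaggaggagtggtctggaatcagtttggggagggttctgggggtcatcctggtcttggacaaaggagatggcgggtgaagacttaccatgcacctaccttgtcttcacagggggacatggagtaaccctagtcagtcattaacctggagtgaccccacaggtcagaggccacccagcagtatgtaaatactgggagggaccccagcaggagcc
None of the 6 motifs was in this window, so no base is in capitals. Macrophage-like cells had 641, 744, 639.8 and 423 CPM (612 ± 135, SD, n = 4 libraries) and *Pdpn*/*Arg1* cells 174, 172, 117 and 97.1 CPM. The first were higher in 4 of 4 libraries, by 2.05 on the log2 scale (SE 0.22, adjusted p = 1.2e-09, edgeR), and the second were above monocyte-like cells (17.8 to 37.6 CPM) by 2.15 (SE 0.28, adjusted p = 1.5e-07, edgeR). Each step thus exceeded the spread between libraries. The share of macrophage-like cells with a *Gdf15* UMI was 48.1%, 55.3%, 38.6% and 42.1%, against 0.383% to 1.20% of CD4 T cell-like cells. *Igf1* and *Gdf15* did not mark the same macrophage-like cells in a uniform way: *Gdf15* was found in 59.1%, 59.0%, 46.2% and 32.4% of cells with an *Igf1* UMI and in 43.8%, 48.9%, 27.8% and 58.1% of cells without, so hucMSC-Exo 2 went against the other libraries.

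*Vegfa* was the most widely found factor among the myeloid classes. The 250 bases before its RefSeq start (chr17:46032378-46032627, GRCm38, printed 5′ to 3′ on the minus strand) are shown as the window of a factor that most myeloid classes share, with 2 GC boxes (GGGCGG) in capitals and none of the other motifs, the hypoxia response letters ACGTG included (in 16.6% of windows).
Vegfa: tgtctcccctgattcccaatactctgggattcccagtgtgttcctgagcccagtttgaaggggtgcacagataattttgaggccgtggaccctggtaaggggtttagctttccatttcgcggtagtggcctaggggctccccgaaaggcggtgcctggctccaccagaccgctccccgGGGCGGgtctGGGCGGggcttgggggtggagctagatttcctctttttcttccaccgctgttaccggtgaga
*Pdpn*/*Arg1* cells had 643, 771, 431 and 797 CPM (661 ± 167, SD, n = 4 libraries), with a UMI in 79.9% to 88.2% of cells. Monocyte-like cells had 278, 527, 383 and 452 CPM, with a UMI in 53.8% to 77.1% of cells. *Pdpn*/*Arg1* cells were the higher of these in 4 of 4 libraries, but the difference of 0.65 on the log2 scale (SE 0.32) did not pass the test (adjusted p = 0.188, edgeR). Dendritic cell-like cells followed with 130.1, 321, 265 and 345 CPM, not separated from monocyte-like cells (0.55, SE 0.33, adjusted p = 0.236, edgeR; 22.8% of genes called). Macrophage-like cells had 220.3, 393, 52.3 and 204 CPM, NK cell-like cells 68.5, 290.1, 289.7 and 177 CPM, and neutrophil-like cells 146, 125, 175 and 131 CPM. The lowest macrophage-like value, in hucMSC-Exo 1, rests on 13 UMIs. CD4 T cell-like cells, the background here, had a *Vegfa* UMI in 1.20% to 3.17% of cells. In the DETC-like clusters *Vegfa* followed *Areg*: it was 2.43-fold to 4.73-fold higher in the *Trmt61b* cluster (40.3, 108, 176 and 103 CPM) than in the *Col27a1* cluster (16.6, 28.1, 37.1 and 28.0 CPM).

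The platelet-derived growth factor genes were low, and macrophage-like cells were first or second for both. *Pdgfa* stood at 48.1 (17 cells, 35.3% with a UMI), 119.6, 99.5 and 62.1 CPM in *Pdpn*/*Arg1* cells and at 41.4, 131, 52.3 and 43.9 CPM in macrophage-like cells. The difference did not pass the test (0.39, SE 0.25, adjusted p = 0.289, edgeR). DETC-like cells came next at 39.6, 24.4, 34.6 and 27.2 CPM and lay below macrophage-like cells by 1.32 (SE 0.27, adjusted p = 4.9e-05, edgeR; 56.7% of genes called), which was not called without Control 2 (0.72, adjusted p = 0.0611). Other T cells had little: IL-17 gamma delta T cell-like cells averaged 0.7 CPM and CD4 T cell-like cells 1.0 CPM. *Pdgfb* was highest in macrophage-like cells at 32.9, 76.7, 60.4 and 54.6 CPM, not separated from group 2 innate lymphoid cell-like cells at 43.1, 34.2, 21.0 and 78.5 CPM (0.64, SE 0.41, adjusted p = 0.215, edgeR; 43.6% of genes called). The latter rest on 5, 5, 11 and 12 UMIs and were not separated from NK cell-like cells, with 14.5 to 39.2 CPM (0.68, SE 0.49, adjusted p = 0.484, edgeR; 10.3% of genes called). The platelet genes *Ppbp*, *Itga2b* and *Gp1ba* summed to 1.69 to 20.1 CPM in macrophage-like cells, to 0 to 39.6 CPM in *Pdpn*/*Arg1* cells and to 0 CPM in group 2 innate lymphoid cell-like cells.

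Which cells supplied most molecules depended on cell number as well as on level. DETC-like cells held 22.1% to 76.0% of all *Areg* UMIs of a library, IL-17 gamma delta T cell-like cells 6.101% to 49.6% and CD4 T cell-like cells 4.92% to 14.2%. The highest DETC-like share was in Control 1, where this class had 337 cells and IL-17 gamma delta T cell-like cells only 62. Macrophage-like cells held 48.3% to 92.7% of *Gdf15* UMIs, 5.26% to 65.4% of *Hbegf* UMIs and 12.6% to 38.2% of *Pdgfb* UMIs. *Pdpn*/*Arg1* cells held 19.1% to 52.1% of *Vegfa* UMIs and 6.40% to 60.3% of *Pdgfa* UMIs. Only *Igf1* and, outside 1 library, *Gdf15* had 1 class with most of their UMIs in every library.

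**Figure D3:**
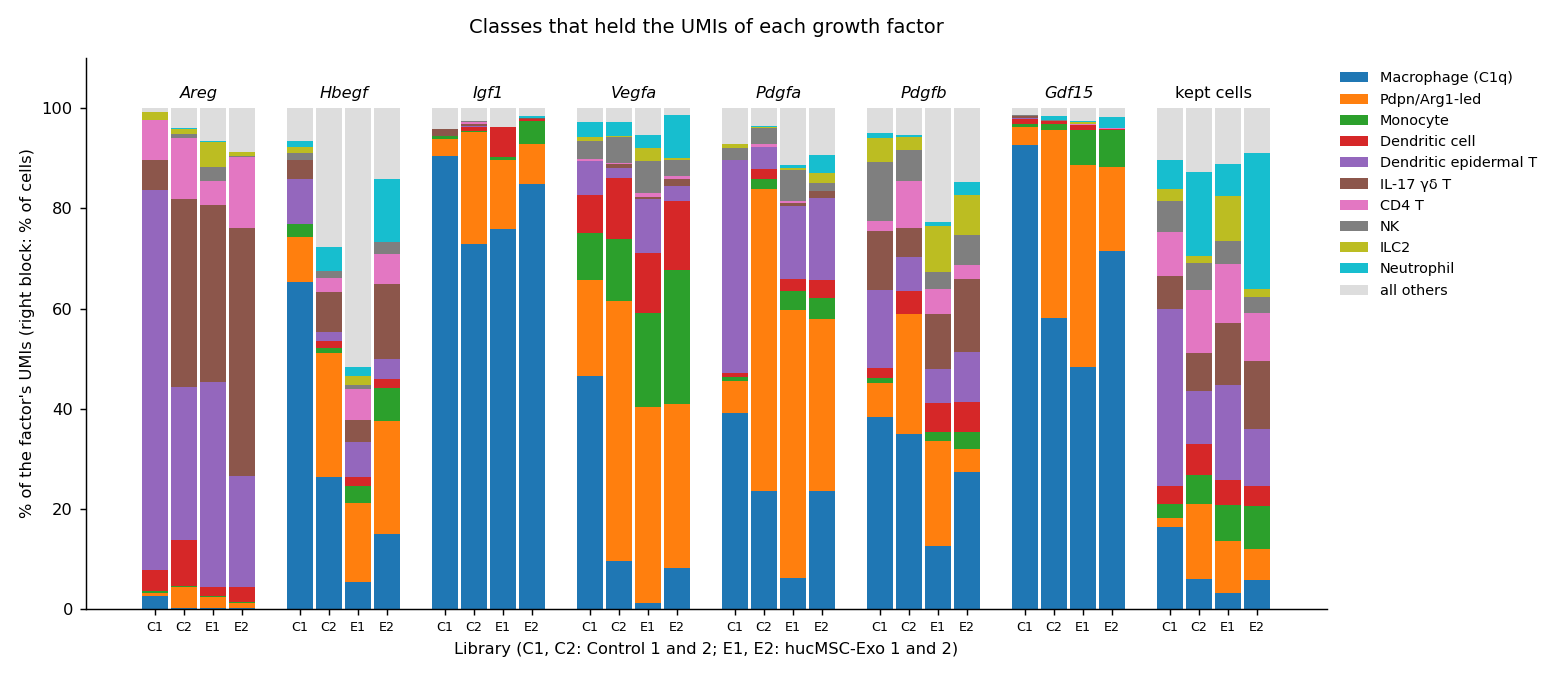
Percent of each growth factor's UMIs in the kept cells of a library that came from each class, as stacked bars for the 4 libraries, with the right block giving the percent of kept cells in each class and grey for all other cells. Macrophage-like cells hold 72.9% to 90.5% of *Igf1*, whereas *Areg* is divided between DETC-like, IL-17 gamma delta T cell-like and CD4 T cell-like cells.

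The genes around these factors were taken from a list of 45 other ligands, receptors, sheddases and binding proteins, of which 42 were listed in the matrices and 8 reached a mean of 100 CPM in some class. Among sheddases, *Adam17*, which cuts amphiregulin and HB-EGF free, was highest in *Pdpn*/*Arg1* cells (96.0 to 156.2 CPM). Among receptors, *Igf1r* was highest in neutrophil-like cells at 308.6, 530.5, 463.9 and 536.0 CPM, and the neuropilin genes *Nrp1* and *Nrp2*, coreceptors for VEGF, were highest in macrophage-like cells (81.9 to 165.0 CPM) and *Pdpn*/*Arg1* cells (145.0 to 234.3 CPM). The EGF receptor family and both PDGF receptor genes stayed under 10 CPM on average in each of the 11 classes, and the GDF15 receptor gene *Gfral* was not listed. *Pgf*, a *Vegfa* relative, was highest in dendritic cell-like cells (83.6 to 521.2 CPM), *Nrg1*, a ligand of other EGF receptor family members, in *Pdpn*/*Arg1* cells (36.0 to 176.1 CPM), *Igfbp4* in macrophage-like cells (53.2 to 131.8 CPM) and *Igfbp6* in neutrophil-like cells (169.7 to 310.4 CPM).

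Of 4778 genes with a class mean of at least 50 CPM, those whose log2 means followed a factor most closely over the 11 classes were named, with Pearson's r as a description over classes that share libraries. *Areg* was nearest to *Dad1* (r = 0.95), *Bpnt1* (0.94) and *Snhg15* (0.94), *Igf1* to *Ccl12* (0.99), *Rab3il1* (0.99) and *Nxpe5* (0.99), and *Gdf15* to *Hebp1* (0.99), *Lpl* (0.99) and *Nxpe5* (0.99). *Vegfa* was nearest to *Vps18* (0.91), *P4hb* (0.89) and *B4galt5* (0.89), *Pdgfa* to *Tnfsf12* (0.93), *Uap1l1* (0.91) and *Slc27a1* (0.88), *Pdgfb* to *Coa5* (0.86), *Fchsd2* (0.81) and *2610001J05Rik* (0.78), and *Hbegf* to *Syngr1* (0.93), *Selenop* (0.92) and *Saa3* (0.91). *Igf1* and *Gdf15* thus had 1 of these genes, *Nxpe5*, in common.

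The design asks whether the exosomes changed these factors. No growth factor passed the test in any class: of 31 pairs of factor and class with enough counts, 0 were called (edgeR quasi-likelihood on summed counts, adjusted p below 0.05). Of the 31 pairs, 3 had an unadjusted p below 0.05, against 1509 of 54805 pairs over all genes and classes. DESeq2 also called 0 growth factors and had 0 at an unadjusted p below 0.05, against 399 of 54805 pairs. Over all genes and classes edgeR called 2 of 54805 pairs, 0.00365%, both in DETC-like cells (0.0273% of the 7337 genes tested there, *Cxcl10* and *Il17a*), so few calls were made anywhere. Among the 45 pathway genes 0 of 79 pairs were called by either tool, and 4 had an unadjusted p below 0.05 in edgeR.

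*Areg* in IL-17 gamma delta T cell-like cells was higher with hucMSC-Exo by 0.68 on the log2 scale (SE 0.66, adjusted p = 1.00, edgeR), and the groups overlapped because Control 2 was the highest library. Without Control 2 this difference was 2.61 (SE 0.22, adjusted p = 5.1e-07, edgeR), and without Control 1 it was -0.086, so the direction turns on which control is kept. In DETC-like cells *Areg* differed by 0.41 (SE 0.26, adjusted p = 0.979, edgeR), again with Control 2 between the treated libraries, and without Control 2 by 1.02 (SE 0.24, adjusted p = 0.0025, edgeR). The *Trmt61b* cluster was the larger DETC-like cluster in Control 2 and hucMSC-Exo 1 and the *Col27a1* cluster in Control 1 and hucMSC-Exo 2.

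*Igf1* in macrophage-like cells showed the same dependence. It was higher with hucMSC-Exo by 0.54 (SE 0.52, adjusted p = 0.964, edgeR), by 2.13 without Control 2 (SE 0.33, adjusted p = 1.4e-07, edgeR) and by -0.19 without Control 1. Control 2 alone was above both treated libraries and Control 1 below both. In *Pdpn*/*Arg1* cells *Igf1* differed by -0.76 (SE 0.42, adjusted p = 1.00, edgeR).

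*Hbegf*, *Gdf15* and *Pdgfa* tended the other way in macrophage-like cells, with no call. *Hbegf* was 43.1 and 64.1 CPM in Control and 24.1 and 24.0 CPM in hucMSC-Exo, the treated values on few UMIs. The difference was -1.15 (SE 0.37, unadjusted p = 0.0085, adjusted p = 0.634, edgeR). These groups did not overlap, but libraries in groups of 2 split in only 3 ways. The share of all genes separated like this, here or for *Gdf15* below, was not counted. *Gdf15* differed by -0.40 (SE 0.26, adjusted p = 0.941, edgeR), with hucMSC-Exo 1 just under Control 1. *Pdgfa* differed by -0.85 (SE 0.47, adjusted p = 0.889, edgeR), and this rests on Control 2, since Control 1 was the lowest library. In *Pdpn*/*Arg1* cells *Gdf15* was lower in both treated libraries (-0.64, SE 0.33, adjusted p = 1.00, edgeR), while *Hbegf* (-0.04, SE 0.53), *Pdgfa* (-0.15, SE 0.42) and *Vegfa* (-0.19, SE 0.34) overlapped between the groups, as did *Vegfa* in monocyte-like cells (0.15, SE 0.33) and *Pdgfb* in macrophage-like cells (0.07, SE 0.39). *Pdgfb* in group 2 innate lymphoid cell-like cells had too few counts for the test.

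Chosen after its values were seen, *Vegfa* had the other unadjusted p below 0.05 in 2 classes, with opposite directions. In macrophage-like cells it differed by -1.14 (SE 0.43, unadjusted p = 0.0202, adjusted p = 0.705, edgeR). The difference was -0.62 without hucMSC-Exo 1 and -0.23 with all deposited cells, whereas it was called without hucMSC-Exo 2 (-2.51, adjusted p = 0.0017), without Control 1 (-1.42, adjusted p = 9.2e-04), without the count filter (adjusted p = 0.0201) and with the replicate number as a block (-1.36, adjusted p = 0.0061). In DETC-like cells it differed by 1.18 (SE 0.40, unadjusted p = 0.0086, adjusted p = 0.780, edgeR), although hucMSC-Exo 2 at 65.0 CPM lay below Control 2 at 74.3 CPM. This one was 0.42 without hucMSC-Exo 1, 0.55 without Control 1 and 0.68 with all deposited cells, and was called without Control 2 (2.05, adjusted p = 4.9e-07), without hucMSC-Exo 2 (1.69, adjusted p = 6.8e-06), without the count filter (adjusted p = 0.0074) and with a block that paired unlike replicate numbers (adjusted p = 0.0206). When the treatment effect in each class was set against the mean effect of the other classes, 0 of 77 pairs of factor and class were called and 5 had an unadjusted p below 0.05. They were *Vegfa* (-1.85, adjusted p = 0.412), *Hbegf* (-2.07, adjusted p = 0.546) and *Pdgfa* (-1.36) in macrophage-like cells, and *Areg* in NK cell-like (2.91) and CD8 or NKT cell-like (-3.06) cells, and at most 0.0116% of all genes were called in any class. The share of all genes at an unadjusted p below 0.05 was not counted here. For *Igf1* in every class and *Gdf15* in most, the SE far exceeded the difference, as with SE 2908 and 991 in macrophage-like cells. Those pairs could not be called in this fit, so no conclusion is drawn from them. *Areg* in NK cell-like cells was 0, 73.7, 518 and 49.5 CPM, so hucMSC-Exo 1 alone was high.

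**Figure D4:**
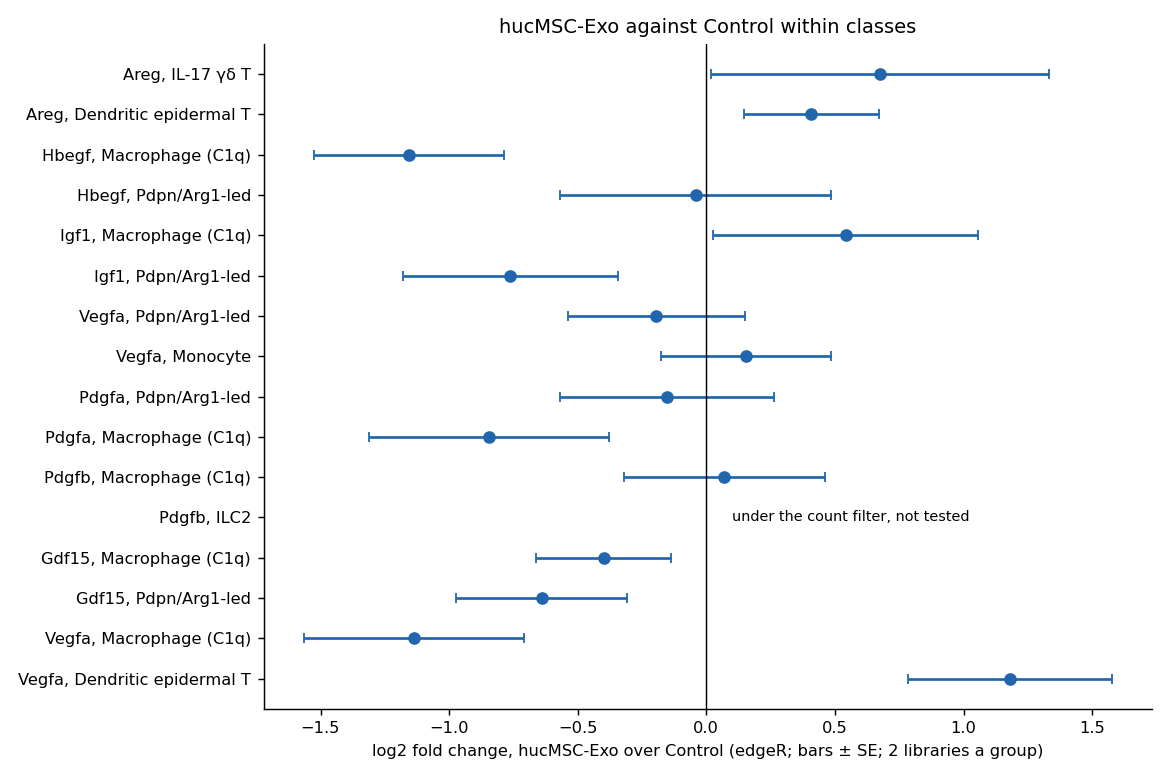
Log2 difference between hucMSC-Exo and Control for each growth factor in its first and second class, and for *Vegfa* in macrophage-like and DETC-like cells, with bars of 1 SE (edgeR, 2 libraries per group). None passed the adjusted threshold, and the differences run from -1.15 (*Hbegf* in macrophage-like cells) to 1.18 (*Vegfa* in DETC-like cells).

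The shares of cells with a UMI were compared between the groups by an exact two-sided permutation test, which with 2 libraries per group cannot go below p = 0.333. The difference was 16.6 percentage points for *Areg* in IL-17 gamma delta T cell-like cells (exact p = 0.333) and 14.9 points for *Igf1* in macrophage-like cells (exact p = 1.00). It was -9.30 points for *Hbegf* and -11.3 points for *Gdf15* in macrophage-like cells, and -8.46 points for *Pdgfa* in *Pdpn*/*Arg1* cells (exact p = 0.333 for each). It was -2.70 points for *Vegfa* in *Pdpn*/*Arg1* cells and 2.08 points for *Pdgfb* in macrophage-like cells (exact p = 0.667 for both). With every cell thinned to 1000 UMIs the differences were 12.2 points for *Areg*, 6.72 for *Igf1*, -2.55 for *Hbegf*, -4.52 for *Gdf15* and -0.54 for *Pdgfa*. The *Pdgfa* difference was thus nearly gone at equal depth. Thinning left out 0 of 222 Control and 5 of 451 hucMSC-Exo IL-17 gamma delta T cell-like cells, 1 of 279 and 1 of 158 macrophage-like cells, and 6 of 330 and 8 of 272 *Pdpn*/*Arg1* cells.

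**Figure D5:**
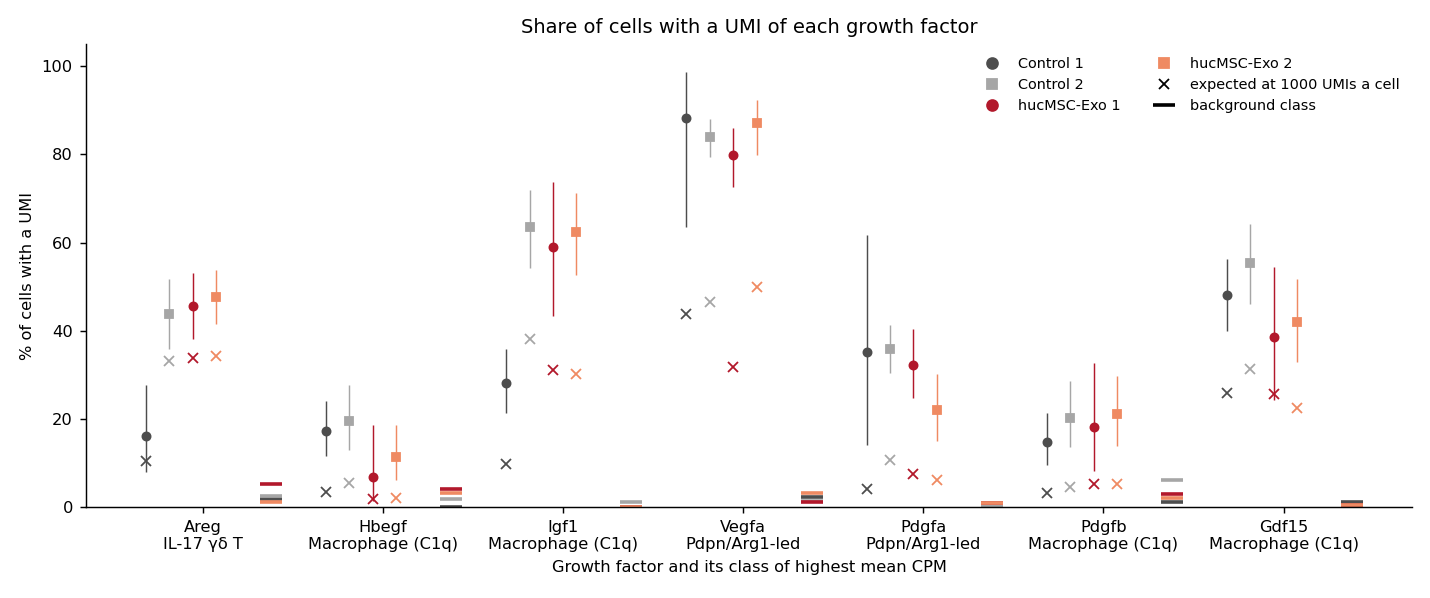
Share of cells with a UMI of each growth factor in the class where its level was highest, per library, with exact 95% binomial intervals that cover counting error only, crosses for the share expected at 1000 UMIs a cell and dashes for the share in the background class. Control 1 is lowest for *Areg* (16.1%) and *Igf1* (28.2%). Both hucMSC-Exo libraries lie below both Control libraries for *Hbegf* and *Gdf15*, where the exact permutation test gave p = 0.333, its lowest possible value.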

How the data were processed

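The members and gene lists were chosen with earlier results of these data known. The deposited files hold UMI counts per gene and cell, which the authors made with Cell Ranger 6.1.2 on mm10 from 10x 3′ libraries; any later filtering of the matrices is not given in the sources used here, and they hold fewer cells than the study counts per mouse. Groups came from the sample titles, whereas letters in the matrix names would group the libraries in another way, which was not analysed here. The study removed doublets in its own analysis. Here Scrublet's own cut marked only 3 to 12 cells per library and was not used. Whether it failed or doublets were gone before deposit was not tested. No cells were removed as doublets, and cells with the 6% highest scores were left out as an alternative. The libraries shared 6 cell barcodes and 0 had identical counts.

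Cells with 200 to 3000 genes and at most 10% mitochondrial counts were scaled to 10000, and 1976 variable genes, without the growth factors and the listed genes, gave 30 principal components, 15 neighbours and Leiden clusters at resolution 1 (scanpy 1.11.5). A cluster was named by the marker list with the highest mean fold, if at least 3 markers were detected. Counts summed per class and library were tested with edgeR 4.0.16 (TMM, filterByExpr, quasi-likelihood, Benjamini-Hochberg at 0.05), separately in each class for the groups, and in 1 fit with the library as a block for classes. DESeq2 1.42.0, its size factors, no count filter, a replicate block, leaving out each library, other resolutions and all deposited cells were the alternatives. Both tests recovered large planted changes in simulated counts of well-counted genes. The simulated libraries had a fixed spread, so power for small changes, low counts or libraries as unlike as these was not measured. Named were each growth factor in its first and second class, its next class as a neighbour, and the 3 genes of most similar pattern (log2 of mean CPM + 10); pathway genes were named from 100 CPM. Thinned shares are the expected share with a UMI when 1000 or 2000 UMIs are drawn from each cell. Intervals (Clopper-Pearson, 95%) cover counting error only. Total UMIs per library were 6657095 to 16950639.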

Additional observations from a re-analysis of the deposited data

Results flagged for a closer look

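Cells with more than 3000 genes entered no comparison except the alternative with all deposited cells. They numbered 106 and 281 in the controls (1 and 2) and 75 and 69 in the treated libraries. A growth factor was flagged in these cells only where a treated library was above both controls, which held for 3. *Areg* stood at 300.3 CPM in hucMSC-Exo 2, against 240.1 and 203.9 CPM in the controls and 181 CPM in hucMSC-Exo 1. *Hbegf* stood at 223 CPM in hucMSC-Exo 1, against 50.9 and 126 CPM in the controls and 42.3 CPM in hucMSC-Exo 2. *Pdgfa* stood at 133 CPM in hucMSC-Exo 1, against 52.0 and 82.6 CPM in the controls and 28.8 CPM in hucMSC-Exo 2. In each case the other treated library was below both controls. The flag did not look for lower levels. *Vegfa* (185.9 and 293.5 CPM in the controls, 183.9 and 177.1 CPM in the treated libraries) was below both controls in both treated libraries. So was *Pdgfb* (51.5 and 46.7 CPM, then 44.8 and 18.0 CPM). No difference was tested, and the share of all genes separated like this was not counted. Markers of other cell types also differed between the libraries. *Ctsk*, an osteoclast marker, stood at 1381 and 2647 CPM in the controls and at 4318 and 611 CPM in the treated libraries, and *Acp5* at 1466, 2142, 3416 and 372 CPM, the same order of libraries as for *Hbegf* and *Pdgfa*. The keratinocyte gene *Krt5* (216, 115, 139 and 726 CPM) and the fibroblast gene *Col1a1* (28.8, 93.4, 269 and 932 CPM) were highest in hucMSC-Exo 2, as was *Areg*. Neither kept the *Areg* order in the other libraries: hucMSC-Exo 1, the lowest in *Areg*, was above both controls in *Col1a1*. The part of these cells in the growth factor levels was not tested.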

How the results depend on the processing

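Of the comparisons between classes, 144 values kept their direction and their side of the threshold under an alternative, 10 no longer passed, 2 newly passed and 1 reversed. Of the values for single growth factors between the treatment groups, 158 kept both, 12 newly passed and 18 reversed. The order of IL-17 gamma delta T cell-like over DETC-like cells for *Areg* reversed with all deposited cells (-0.30), and *Vegfa* in *Pdpn*/*Arg1* over monocyte-like cells passed without the count filter (0.66, adjusted p = 0.0218, edgeR). *Vegfa* in monocyte-like over dendritic cell-like cells passed with all deposited cells (0.89). The 10 lost calls were 4 for *Areg* in DETC-like over CD4 T cell-like cells, 3 for *Hbegf* in *Pdpn*/*Arg1* over IL-17 gamma delta T cell-like cells, 2 for *Igf1* in *Pdpn*/*Arg1* over monocyte-like cells and 1 for *Pdgfa* in macrophage-like over DETC-like cells, and all kept their direction.

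The 2 genes called between the treatment groups over all classes became 6 with DESeq2, 6 without the highest doublet scores, 194 without the count filter, 1 at Leiden resolution 1.6, and 0 at resolution 0.6 or with all deposited cells, and 91 to 875 when 1 library was left out (875 without Control 2, 161 without Control 1). The growth factors called became 3 without the count filter and 1 to 7 when 1 library was left out (7 without Control 2, 4 without Control 1), where a lone library is assumed to vary like the others. The labels do not pair the libraries, and deviations of same-numbered libraries correlated at 0.19 over all kept cells and at -0.25 to 0.16 within classes. The fit with the replicate block called 65 of 54805 pairs of all genes and classes and 1 of 31 growth factor pairs, *Vegfa* in macrophage-like cells (-1.36). A crossed block, added after the data were seen, called 69 of 54805 pairs of all genes and classes. It called 2 of 31 growth factor pairs, *Vegfa* in DETC-like and *Areg* in NK cell-like cells.

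Differences between the treatment groups that reversed were *Hbegf* in *Pdpn*/*Arg1* cells at Leiden resolution 0.6 (0.41) and 1.6 (0.046), *Vegfa* in monocyte-like cells (-0.13) and *Pdgfb* in macrophage-like cells (-0.36) with all deposited cells, and *Pdgfa* in *Pdpn*/*Arg1* cells with the crossed block (0.021). Leaving out 1 library gave -0.086 to 2.61 for *Areg* in IL-17 gamma delta T cell-like and -0.016 to 1.02 in DETC-like cells, where *Vegfa* ran from 0.42 to 2.05. It gave -0.19 to 2.13 for *Igf1*, -1.44 to 0.088 for *Pdgfa*, -2.51 to -0.62 for *Vegfa* and -0.39 to 0.69 for *Pdgfb* in macrophage-like cells, and -0.20 to 0.70 for *Vegfa* in monocyte-like cells. In *Pdpn*/*Arg1* cells it gave -0.79 to 0.37 for *Hbegf*, -1.15 to 0.10 for *Igf1*, -0.59 to 0.14 for *Vegfa* and -0.60 to 0.77 for *Pdgfa*. Thinning to 1000 or 2000 UMIs moved the share difference to -2.55 or -4.07 points for *Hbegf* and to -0.54 or -0.020 points for *Pdgfa*, and thinning to 1000 UMIs moved it to -4.52 points for *Gdf15*. At resolution 0.6 no DETC-like class formed, and with all deposited cells no *Pdpn*/*Arg1* class, so their values could not be computed there. The cause of these shifts was not tested. Low counts limit most factors outside their leading classes: of 44 pairs of class and library, 33 had at most 3 UMIs of *Igf1*, 28 of *Gdf15*, 23 of *Pdgfa* and 22 of *Hbegf*.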

Other observations

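Values outside the 11 compared classes were as follows. The unnamed cluster led by *Aif1*, *C1qb* and *H2-Eb1* held 224 cells with a median of only 1014 UMIs, and *Hbegf* stood there at 56.9, 80.5, 258 and 78.7 CPM, on 3, 10, 48 and 6 UMIs, above the macrophage-like level in every library. It was found in 6.82%, 4.82%, 13.7% and 8.70% of these cells, and the cluster held up to 42.1% of a library's *Hbegf* UMIs. The sum of 8 keratinocyte markers in it was 956 to 4190.3 CPM, and their part in the *Hbegf* level was not tested. Fibroblast-like cells (46 cells) had *Hbegf* at 42.3, 124, 91.5 and 52.8 CPM, on 1 to 11 UMIs.

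The unnamed cycling cluster led by *Hist1h1b* (101 cells) had *Areg* at 67.1, 300.4, 1132 and 2163 CPM, on 10, 59, 284 and 604 UMIs. Both treated libraries were above both controls. This difference was not tested, and the share of all genes separated like this was not counted. Basophil-like cells, of which Control 1 held 1, had *Vegfa* at 282, 236 and 18.4 CPM in the other libraries, on 60, 13 and 1 UMIs.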
